A study of Mus musculus with 31 samples.

Results

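The genes described here are the 4 PDGF ligands Pdgfa, Pdgfb, Pdgfc and Pdgfd, the PDGF receptors Pdgfra and Pdgfrb, and the VEGF ligands Vegfa, Vegfb and Vegfc. They were taken by gene symbol, which gave 9 of the 38283 genes listed in each table. RNA was sequenced from pancreatic cells of C57BL/6 mice at postnatal day 2, sorted on YFP into a positive fraction labelled mesenchymal and a negative fraction labelled non-mesenchymal. In the H19DMD model, controls were H19DMD+/+; Nkx3.2+/Cre and mutants were H19DMDfl/+; Nkx3.2+/Cre, with 3 control and 4 mutant libraries of each fraction. In the Igf2 model, controls were Igf2+/+; Nkx3.2Cre/+ and mutants were Igf2+/fl; Nkx3.2Cre/+, and only the non-mesenchymal fraction had values, in 4 control and 3 mutant libraries. The mesenchymal cells of the Igf2 model were not analysed here. All groups carried the Nkx3.2-driven Cre, which drives the deletion in cells of that lineage, and the deleted allele was heterozygous in all mutants. The series describes the models as overexpression (H19DMD) and deletion (Igf2) of Igf2 in mesenchyme, compared with littermates.

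PDGF ligands are secreted dimers that bind the receptor tyrosine kinases PDGFRα (Pdgfra) and PDGFRβ (Pdgfrb). These receptors are known from fibroblasts, pericytes and smooth muscle cells, whereas the ligands often come from neighbouring epithelium or endothelium. VEGF ligands act on the receptors encoded by Flt1, Kdr and Flt4 of blood and lymphatic vessels. In the pancreas, VEGF-A made by epithelial and endocrine cells is known to support the islet capillaries.

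Values were FPKM, fragments scaled by transcript length and by the mapped fragments of a library, so levels of different genes can be set side by side per length. Absolute depth was unknown. Relative depth, a rough estimate from the steps between low values, spanned 2.3-fold over the 14 libraries of the H19DMD table and 2.63-fold over the 7 of the Igf2 table, with 61.0% and 88.1% of library pairs within 0.1 log2 units of the fit. The 3 features with the highest values held 38.2 to 82.5% of a library's FPKM total. In mesenchymal cells Igf2, the growth factor of the targeted locus, was 6160 to 7920 FPKM in H19DMD mutants and 3650 to 4020 in controls, and H19, the non-coding RNA beside it, was 565 to 835 and 2440 to 2450 (exact permutation p = 0.0286 for each gene). Neither gene overlapped between the genotypes, but in the limma fit H19 passed the threshold (adjusted p = 0.0458) and Igf2 did not (0.927). In non-mesenchymal cells of the Igf2 model, Igf2 was 25.0 to 147 FPKM in mutants and 71.5 to 144 in controls, so these cells do not check that deletion. The sorted fractions carried the markers of their labels. Summed FPKM of 7 fibroblast-type genes was 4970 to 6510 in mesenchymal and 35.0 to 134 in non-mesenchymal libraries of the H19DMD table, and that of 5 acinar genes was 530 to 1670 and 36000 to 97900. Nkx3-2, the gene whose locus drives Cre, was 0 to 1.99 FPKM in mesenchymal libraries and listed at 0 in every non-mesenchymal library of that table, but it reached 2.24 FPKM in a non-mesenchymal mutant of the Igf2 table.

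Both PDGF receptors were higher in mesenchymal cells, and the ligands went in both directions or did not pass. In H19DMD controls, Pdgfra, Pdgfrb and Vegfc were higher in mesenchymal cells, and Pdgfc, Pdgfd and Vegfa were higher in non-mesenchymal cells, while Pdgfa, Pdgfb and Vegfb did not pass the test. The same 6 members passed in the same directions in H19DMD mutants. In each comparison 3 of 9 members were higher and 3 of 9 lower in mesenchymal cells. Among all genes tested, 12.4% were higher and 10.3% lower in controls, and 13.5% and 15.1% in mutants. The receptors in both genotypes, and Vegfc in controls, reached the mean of 1 FPKM required for testing only through mesenchymal cells and could only be called higher, so their count cannot be read against these shares. The test was limma on log2(FPKM + 1), with p-values adjusted over all genes and a threshold of 0.05, and the added 1 FPKM makes the log2 differences of low genes smaller than their ratios. Library labels do not say that replicates are separate animals, so p-values measure the spread between these libraries, which may be technical. In bulk RNA, fewer cells of a type and less RNA per cell cannot be told apart.

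**Figure D1:**
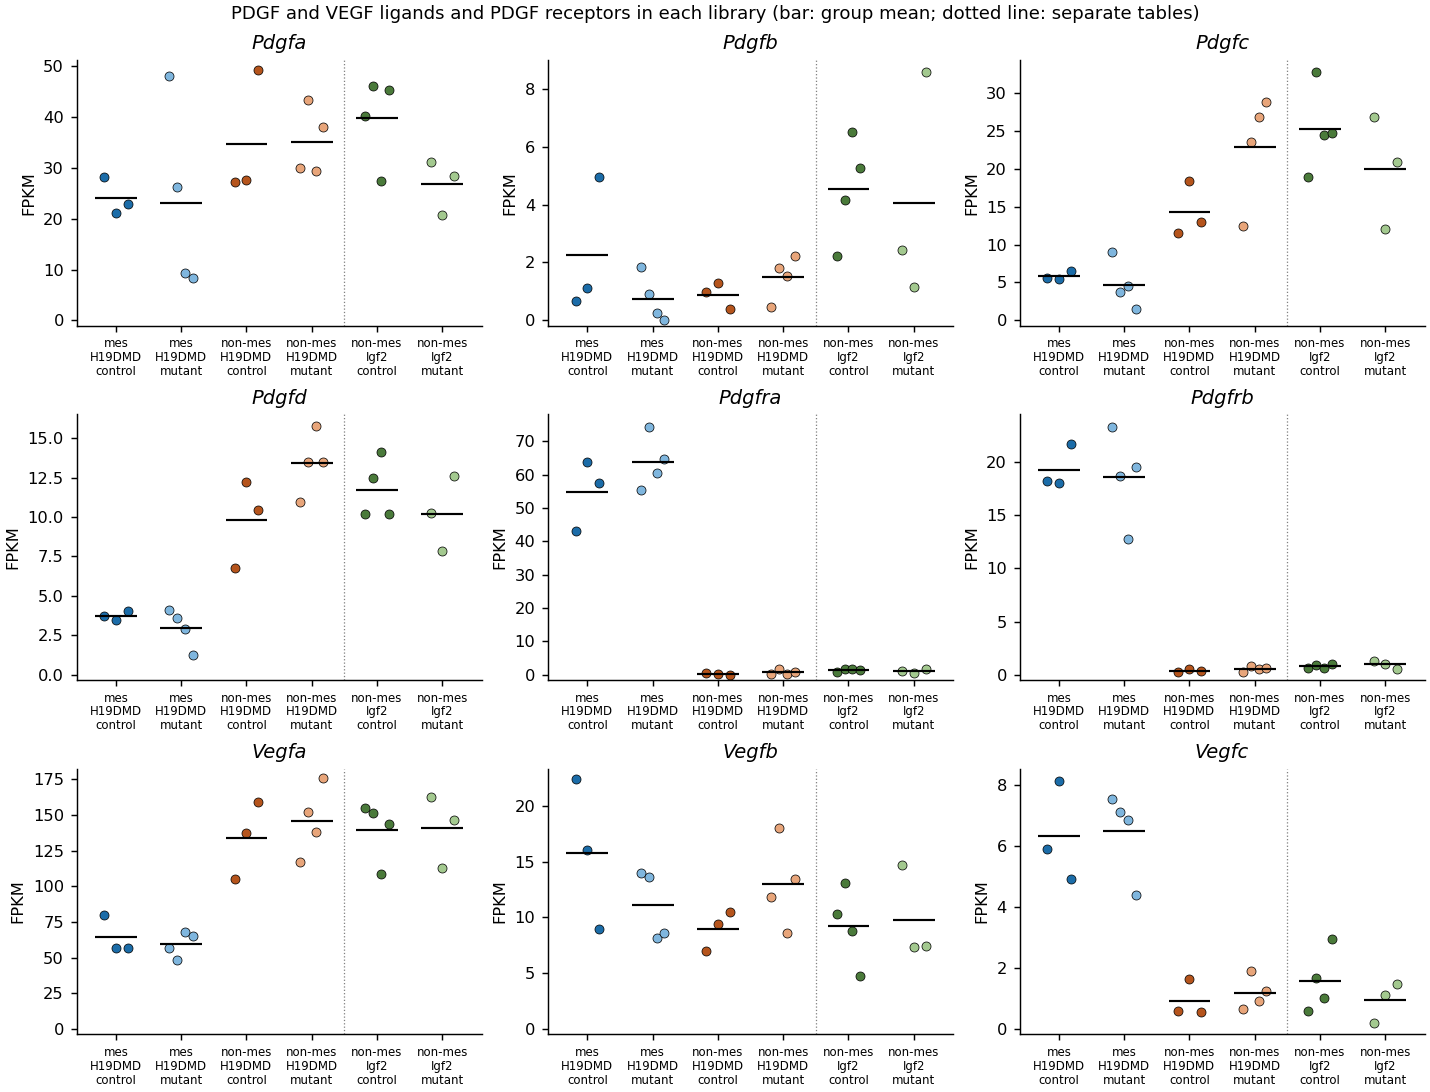
FPKM of each of the 9 genes (vertical axis, linear, scaled for each gene) in every library (points) of the 6 groups with values, with group means as bars. A dotted line separates the tables of the H19DMD and Igf2 models, which were normalised separately. Pdgfra and Pdgfrb lie near 0 in all non-mesenchymal libraries, and Vegfa is at 48.3 to 80.3 FPKM in mesenchymal and 105 to 176 in non-mesenchymal libraries of the H19DMD table.

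The sequences just upstream of 5 of the 6 genes that differed between fractions are shown so that the letters before genes higher in mesenchyme (Pdgfra, Vegfc) can be read against those of genes higher outside it (Vegfa, Pdgfc, Pdgfd). RefSeq promoter entries of GRCm38.p6 matched 7 of the 9 genes. Each line gives the 250 bases before the start site, 5′ to 3′ on the gene's strand. The windows are chr5:75152001-75152250 (Pdgfra, plus strand), chr8:54077282-54077531 (Vegfc, plus), chr17:46032378-46032627 (Vegfa, minus), chr3:81036166-81036415 (Pdgfc, plus) and chr9:6168236-6168485 (Pdgfd, plus). Capitals mark, on either strand, the GC box GGGCGG, the TATA box TATAAA, the CCAAT box CCAAT and the hypoxia response core ACGTG or GCGTG.
Pdgfra: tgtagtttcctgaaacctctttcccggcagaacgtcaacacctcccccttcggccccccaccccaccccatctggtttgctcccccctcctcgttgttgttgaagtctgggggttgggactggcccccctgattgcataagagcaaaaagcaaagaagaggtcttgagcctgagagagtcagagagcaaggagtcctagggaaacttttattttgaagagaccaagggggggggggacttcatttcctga
Vegfc: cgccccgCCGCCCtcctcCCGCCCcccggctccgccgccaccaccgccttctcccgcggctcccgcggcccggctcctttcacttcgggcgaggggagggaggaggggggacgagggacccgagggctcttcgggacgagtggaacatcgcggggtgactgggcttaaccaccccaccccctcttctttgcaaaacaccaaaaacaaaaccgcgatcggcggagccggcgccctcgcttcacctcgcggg
Vegfa: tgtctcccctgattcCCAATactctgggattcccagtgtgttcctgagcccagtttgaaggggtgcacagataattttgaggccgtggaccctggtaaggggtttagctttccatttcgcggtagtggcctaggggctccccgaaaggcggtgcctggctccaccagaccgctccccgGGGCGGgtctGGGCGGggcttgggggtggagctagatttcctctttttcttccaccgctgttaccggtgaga
Pdgfc: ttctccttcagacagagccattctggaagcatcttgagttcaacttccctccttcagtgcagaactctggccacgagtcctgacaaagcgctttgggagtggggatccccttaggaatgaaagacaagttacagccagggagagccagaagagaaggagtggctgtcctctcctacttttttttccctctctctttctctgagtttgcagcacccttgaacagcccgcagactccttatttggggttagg
Pdgfd: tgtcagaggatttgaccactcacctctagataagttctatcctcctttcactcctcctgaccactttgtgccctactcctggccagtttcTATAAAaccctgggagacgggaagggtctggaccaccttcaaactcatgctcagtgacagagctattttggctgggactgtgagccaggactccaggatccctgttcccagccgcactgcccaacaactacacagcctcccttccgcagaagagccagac

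Both groups held promoters of unlike make-up. Vegfc, higher in mesenchyme, had 2 GC boxes and 71.6% G and C, while Pdgfra had none of the 4 motifs and 54.4% G and C. Of the genes higher in non-mesenchymal cells, Vegfa had 2 GC boxes and 1 CCAAT box with 59.2% G and C, and Pdgfd had 1 TATA box with 53.6%. Pdgfc had none of the motifs and 50.8% G and C, against a median of 52.4% over all 32851 promoter entries. Of those entries 32.7% held the GC box, 12.4% the TATA box, 33.8% the CCAAT box and 38.6% the hypoxia core. The hypoxia core was not among the letters of any of these 5 windows. These matches are counts of letters in a window and not measured binding.

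The receptors showed the widest gap. Pdgfra, the receptor for PDGF-A, -B and -C, was 43.1, 63.8 and 57.6 FPKM in the 3 mesenchymal control libraries and 0.510, 0.209 and 0.0346 in the non-mesenchymal controls. In mutants it was 55.5, 74.3, 60.5 and 64.8 FPKM in mesenchymal and 0.223, 1.69, 0.372 and 0.812 in non-mesenchymal cells. All mesenchymal libraries thus lay far above all non-mesenchymal ones in both genotypes. The ratio of means was 218-fold in controls (log2 fold change 5.48 ± 0.25 SE, limma adjusted p = 0.000102) and 82.3-fold in mutants (5.25 ± 0.26, adjusted p = 4.95e-06). These ratios rest on non-mesenchymal values close to 0: the ratio was 449.7-fold without non-mesenchymal control 1 and 135.9-fold without non-mesenchymal mutant 2.

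Pdgfrb, the receptor that PDGF-B and PDGF-D use, was 18.2, 18.0 and 21.7 FPKM in mesenchymal controls and 0.270, 0.560 and 0.325 in non-mesenchymal controls. In mutants it was 23.3, 18.7, 12.7 and 19.5 against 0.270, 0.781, 0.516 and 0.608 FPKM. No library of one fraction overlapped the other. The ratio of means was 50.1-fold in controls (log2 fold change 3.87 ± 0.20 SE, limma adjusted p = 0.000155) and 34.2-fold in mutants (3.65 ± 0.23, adjusted p = 1.23e-05). Within each mesenchymal library Pdgfra was the more abundant receptor per length, 2.37 to 3.54 times Pdgfrb in controls and 2.38 to 4.75 times in mutants. In the Igf2 model, whose libraries were all non-mesenchymal, Pdgfra was 0.429 to 1.71 FPKM and Pdgfrb 0.583 to 1.33. Summed FPKM of 6 pericyte genes was 173 to 333 in mesenchymal and 15.1 to 29.5 in non-mesenchymal libraries of the H19DMD table. That list and the fibroblast-type list moved with both receptors, and their part in the receptor levels was not tested.

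PDGF ligands did not move as one group. Pdgfa, which encodes the A chain that signals through PDGFRα, was the most abundant PDGF ligand on average in all 6 groups. It was 28.2, 21.2 and 22.9 FPKM in mesenchymal controls and 27.3, 27.6 and 49.1 in non-mesenchymal controls. Mesenchymal mutants had 48.1, 26.3, 9.40 and 8.24 FPKM, and non-mesenchymal mutants 30.0, 43.3, 29.4 and 38.0. Fractions overlapped in both genotypes, and the log2 fold changes of -0.46 in controls and -0.92 in mutants did not pass (limma adjusted p = 0.305 and 0.235). In mutants the outcome rested on the mesenchymal library at 48.1 FPKM, since without it the log2 fold change was -1.37 with an adjusted p of 0.039.

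Pdgfc and Pdgfd encode ligands secreted in a latent form that proteases must cut before they bind PDGFRα or PDGFRβ. Pdgfc was 5.62, 5.47 and 6.56 FPKM in mesenchymal controls and 11.5, 18.4 and 12.9 in non-mesenchymal controls. In mutants it was 9.0, 3.72, 4.59 and 1.45 against 12.5, 23.6, 26.8 and 28.9. Each non-mesenchymal library lay above each mesenchymal one of its genotype. The mean was 2.43-fold higher in non-mesenchymal cells of controls (log2 fold change of mesenchymal over non-mesenchymal -1.13 ± 0.23 SE, limma adjusted p = 0.0163) and 4.89-fold higher in mutants (-2.18 ± 0.44, adjusted p = 0.00689). Pdgfd was 3.70, 3.46 and 4.05 FPKM in mesenchymal controls and 6.80, 12.2 and 10.5 in non-mesenchymal controls. Mutants had 4.08, 3.60, 2.89 and 1.27 FPKM in mesenchymal and 11, 13.5, 15.8 and 13.5 in non-mesenchymal cells. Here too the fractions did not overlap. Its mean was 2.63-fold higher in non-mesenchymal controls (-1.16 ± 0.25, adjusted p = 0.0215) and 4.53-fold higher in non-mesenchymal mutants (-1.92 ± 0.27, adjusted p = 0.00111).

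Pdgfb, the B chain known from endothelium and platelets, was the lowest PDGF ligand on average in all 6 groups. It was 0.667, 1.13 and 4.95 FPKM in mesenchymal controls and 0.988, 1.28 and 0.398 in non-mesenchymal controls, and 1.84, 0.911, 0.247 and 0 in mesenchymal mutants against 0.455, 1.82, 1.54 and 2.23 in non-mesenchymal mutants. The libraries overlapped in both genotypes, and 1 mesenchymal control stood above all other libraries of that table. Log2 fold changes were 0.58 in controls and -0.58 in mutants, neither past the threshold (limma adjusted p = 0.503 and 0.364). Summed FPKM of 4 platelet genes was 0.517 to 13 in mesenchymal and 19.3 to 120 in non-mesenchymal libraries, and that of 8 endothelial genes 101 to 186 and 21.8 to 64.2. Pf4 alone carried the difference in the platelet sum, with 0 to 2.52 FPKM in mesenchymal and 16.1 to 116 in non-mesenchymal libraries. Itga2b averaged 4.59 FPKM in mesenchymal and 1.86 in non-mesenchymal controls, and 4.80 and 4.06 in mutants. Of the platelet genes, Ppbp and Pf4 were listed at 0 in every mesenchymal control, Gp9 in every mesenchymal mutant, and Ppbp and Gp9 in every non-mesenchymal control. The part of these cells in the Pdgfb level was not tested.

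Summed over the 4 ligands, PDGF ligand RNA was 31.2 to 38.5 FPKM in mesenchymal controls and 46.6 to 72.9 in non-mesenchymal controls. In mutants the sums were 11 to 63.0 and 54.0 to 82.5 FPKM. Pdgfa held 59.6 to 73.9% of the sum in mesenchymal controls and 46.4 to 67.4% in non-mesenchymal controls. In mutants its share was 54.9 to 76.3% and 39.9 to 55.7%. The ranges of this share overlapped between fractions in both genotypes. Those of the sums overlapped in mutants and not in controls.

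The VEGF ligands also divided. Vegfa, the main growth factor of blood vessels, was 80.3, 56.8 and 56.7 FPKM in mesenchymal controls and 105, 138 and 159 in non-mesenchymal controls. In mutants it was 56.8, 48.3, 68.4 and 64.9 against 117, 152, 138 and 176. All non-mesenchymal libraries lay above all mesenchymal ones. The mean was 2.07-fold higher in non-mesenchymal controls (log2 fold change of mesenchymal over non-mesenchymal -1.04 ± 0.24 SE, limma adjusted p = 0.0259) and 2.45-fold higher in non-mesenchymal mutants (-1.27 ± 0.18, adjusted p = 0.000939). In mesenchymal controls Vegfa had a mean of 64.6 FPKM and Pdgfra 54.8, but Pdgfra was the higher of the pair in controls 2 and 3, and without control 1 the means were 56.79 and 60.7 FPKM.

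Vegfc, the ligand of Flt4 known for lymphatic growth, had the opposite direction. It was 5.90, 8.14 and 4.92 FPKM in mesenchymal controls and 0.587, 1.64 and 0.559 in non-mesenchymal controls. Mutants had 7.55, 7.12, 6.87 and 4.42 FPKM in mesenchymal and 0.674, 1.90, 0.935 and 1.25 in non-mesenchymal cells. Fractions did not overlap, with a ratio of means of 6.80-fold in controls (log2 fold change 1.95 ± 0.32 SE, limma adjusted p = 0.00809) and 5.45-fold in mutants (1.78 ± 0.25, adjusted p = 0.00107). Without non-mesenchymal control 2 the control ratio was 11.03-fold. Vegfb, a ligand of Flt1, was 22.4, 16 and 8.98 FPKM in mesenchymal controls and 6.96, 9.45 and 10.5 in non-mesenchymal controls. In mutants it was 13.9, 13.7, 8.19 and 8.60 against 11.8, 18.0, 8.59 and 13.5. Its fractions overlapped, and the log2 fold changes of 0.69 and -0.20 did not pass (adjusted p = 0.232 and 0.614). Of the summed Vegfa, Vegfb and Vegfc, Vegfa made up 69.9 to 83.3% in mesenchymal and 88.4 to 93.6% in non-mesenchymal libraries of the H19DMD table. In the Igf2 model, all non-mesenchymal, the share was 91.1 to 94.9%.

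Exact two-sided permutation tests over libraries gave p = 0.1 in controls and p = 0.0286 in mutants for each of the 6 members that passed, the smallest values that 3 against 3 and 4 against 4 libraries allow. The calls of Pdgfc, Pdgfd and Vegfa in controls were near the threshold. Pdgfc lost its call without mesenchymal control 1 or 2 (adjusted p = 0.0561 and 0.0563), Pdgfd without any one of mesenchymal controls 1, 2 and 3 or non-mesenchymal controls 2 and 3 (0.0563 to 0.0751), and Vegfa without mesenchymal control 2 or 3 or non-mesenchymal control 2 or 3 (0.0767 to 0.0839). Pdgfc also lost its call with all 4 groups in one fit (adjusted p = 0.0747).

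**Figure D2:**
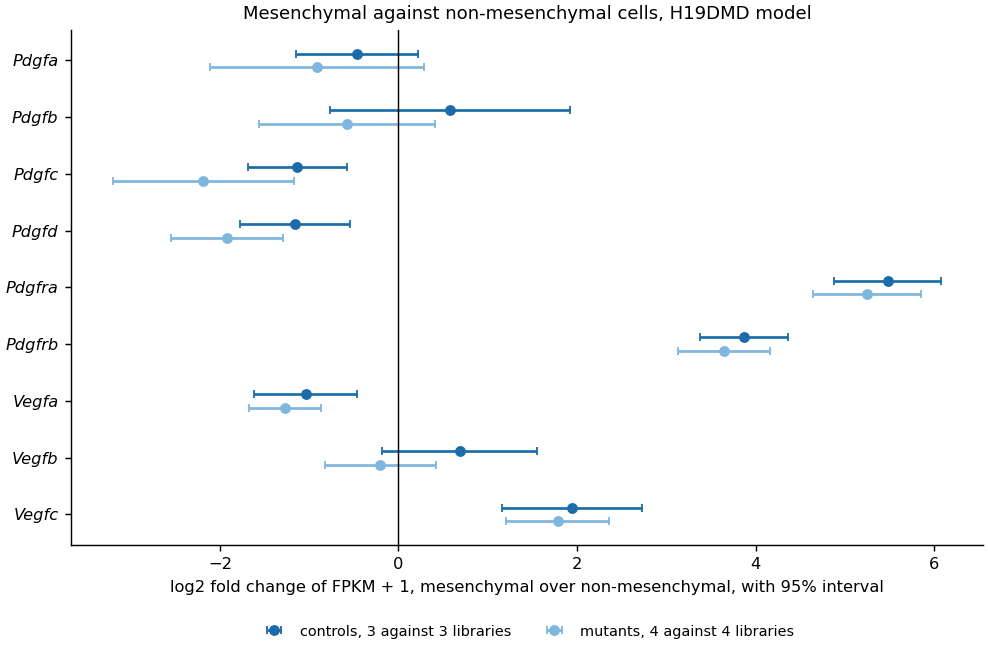
Log2 fold change of FPKM + 1 of mesenchymal over non-mesenchymal cells (horizontal axis) for each gene, with 95% intervals, in H19DMD controls (dark, 3 against 3 libraries) and mutants (light, 4 against 4). Pdgfra at 5.48 and 5.25 and Pdgfrb at 3.87 and 3.65 lie farthest to the right, and Pdgfc, Pdgfd and Vegfa lie left of 0 in both genotypes.

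The order of the members by mean FPKM followed the fraction. In mesenchymal controls it ran Vegfa (64.6), Pdgfra (54.8), Pdgfa (24.1), Pdgfrb (19.3), Vegfb (15.8), Vegfc (6.32), Pdgfc (5.88), Pdgfd (3.74) and Pdgfb (2.25). Ranges of neighbours overlapped there except between Pdgfra and Pdgfa, Vegfb and Vegfc, and Pdgfc and Pdgfd. Mesenchymal mutants had the same order but for Pdgfra (63.8) above Vegfa (59.6), a pair whose ranges overlapped in both genotypes. In non-mesenchymal controls of the H19DMD model the order was Vegfa (134), Pdgfa (34.7), Pdgfc (14.3), Pdgfd (9.82), Vegfb (8.97), Vegfc (0.929), Pdgfb (0.888), Pdgfrb (0.385) and Pdgfra (0.251). Vegfa, Pdgfa, Pdgfc, Pdgfd and Vegfb were the first 5 in that order in every non-mesenchymal group. The range of Vegfa did not overlap that of Pdgfa in any of the 4 groups, whereas Pdgfd and Vegfb overlapped in all 4 and Pdgfc and Pdgfd in 3 of them. Among the last 4 members, all neighbours overlapped in every non-mesenchymal group.

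The other genes of both pathways were read from 5 lists, and those for receptors, other ligands and ligand processing were higher in mesenchymal cells wherever they passed. Of the 5 VEGF receptors and co-receptors, 4 were higher and 0 lower in controls, and 3 and 0 in mutants, beside the 12.4% and 13.5% of all genes that were higher. Nrp1, the co-receptor neuropilin 1, was 39.4 to 51.5 FPKM in mesenchymal and 4.99 to 7.56 in non-mesenchymal libraries (log2 fold change 2.58 ± 0.18 SE in controls and 2.79 ± 0.14 in mutants, limma adjusted p = 0.00039 and 5.23e-06). Nrp2, its relative that also binds VEGF-C, was 18.8 to 51.2 and 4.54 to 7.87 FPKM (2.33 ± 0.30 and 2.43 ± 0.32, adjusted p = 0.00317 and 0.000753). Kdr, the main signalling receptor of VEGF-A, was 3.73 to 11.5 FPKM in mesenchymal and 1.12 to 3.55 in non-mesenchymal libraries (adjusted p = 0.0239 and 0.0441). Flt1 was 4.49 to 11.5 against 1.10 to 7.06 FPKM and passed in controls (adjusted p = 0.0342) but not in mutants (0.22), and the difference between genotypes itself did not pass (interaction, adjusted p = 0.881). Flt4 passed in neither. The endothelial marker sum given above was also higher in the mesenchymal fraction, 101 to 186 against 21.8 to 64.2 FPKM, and its part in the levels of Kdr and Flt1 was not tested.

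Both other VEGF family ligands had higher values in mesenchymal cells, and both reached the mean of 1 FPKM only through them, so no lower call was possible. Figf, the symbol in these tables for the VEGF-D gene, was 36.4 to 62.2 FPKM in mesenchymal libraries and 0 to 1.32 in non-mesenchymal ones (log2 fold change 4.73 ± 0.19 SE in controls and 5.09 ± 0.27 in mutants, limma adjusted p = 9.19e-05 and 6.64e-06). Per length it thus stood above Vegfc in mesenchyme. Pgf, placental growth factor, was 4.87 to 9.97 against 0.137 to 1.21 FPKM (2.21 ± 0.32 and 2.56 ± 0.27, adjusted p = 0.00464 and 0.000192).

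Of the genes that process or bind the ligands, 7 of 8 were tested, and 4 were higher in mesenchymal cells of controls and 5 in mutants, with 0 lower. Of all genes, 12.4% were higher and 10.3% lower in controls, and 13.5% and 15.1% in mutants. Plat, tissue plasminogen activator, which cuts latent PDGF-C, was 19.1 to 31.3 FPKM in mesenchymal and 0.0813 to 0.764 in non-mesenchymal libraries. Its log2 fold change was 4.17 ± 0.26 (SE) in controls and 4.46 ± 0.19 in mutants (limma adjusted p = 0.000277 and 2.95e-06), and it too reached the mean of 1 FPKM only through mesenchymal cells. The ligand Pdgfc was higher in the fraction where Plat was low. Plau, urokinase, which cuts latent PDGF-D, was 0.811 FPKM in mesenchymal and 1.69 in non-mesenchymal controls on average and did not pass (adjusted p = 0.37). Lrp1, an endocytic receptor that binds PDGFRβ, was 69.0 to 152 against 3.82 to 18.3 FPKM (adjusted p = 0.000481 in controls and 0.00128 in mutants). Sparc, a matrix protein that binds PDGF and VEGF ligands, was 1430 to 2490 against 138 to 277 FPKM (adjusted p = 0.000102 and 6.39e-05). Ccbe1, a cofactor of VEGF-C maturation, averaged 11.1 against 3.34 FPKM in controls and 9.01 against 1.76 in mutants (adjusted p = 0.0218 and 0.00518). Pcsk5, a proprotein convertase, passed in mutants (adjusted p = 0.00619) and missed the threshold in controls (0.0556). Furin did not pass, and Adamts3 had a mean too low for the test.

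Of 8 hypoxia-inducible factors and regulators, through which low oxygen is known to raise Vegfa, 2 were higher in mesenchymal cells of controls and 3 in mutants, with 0 lower, beside 12.4% and 13.5% of all genes higher and 10.3% and 15.1% lower. Epas1, the HIF-2α gene, was 9.42 to 24.8 FPKM in mesenchymal and 2.91 to 6.47 in non-mesenchymal libraries (log2 fold change 1.64 ± 0.26 SE in controls and 1.51 ± 0.31 in mutants, limma adjusted p = 0.007 and 0.00781). Arnt, the shared partner of both factors, passed in controls and not in mutants (adjusted p = 0.0124 and 0.0952). Hif1a and Egln3, a prolyl hydroxylase, passed in mutants (0.0104 and 0.0203) and not in controls (0.18 and 0.42). No difference between genotypes passed for these 3 genes (interaction, adjusted p = 0.857 to 0.878). Vegfa itself was lower in the mesenchymal fraction.

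**Figure D3:**
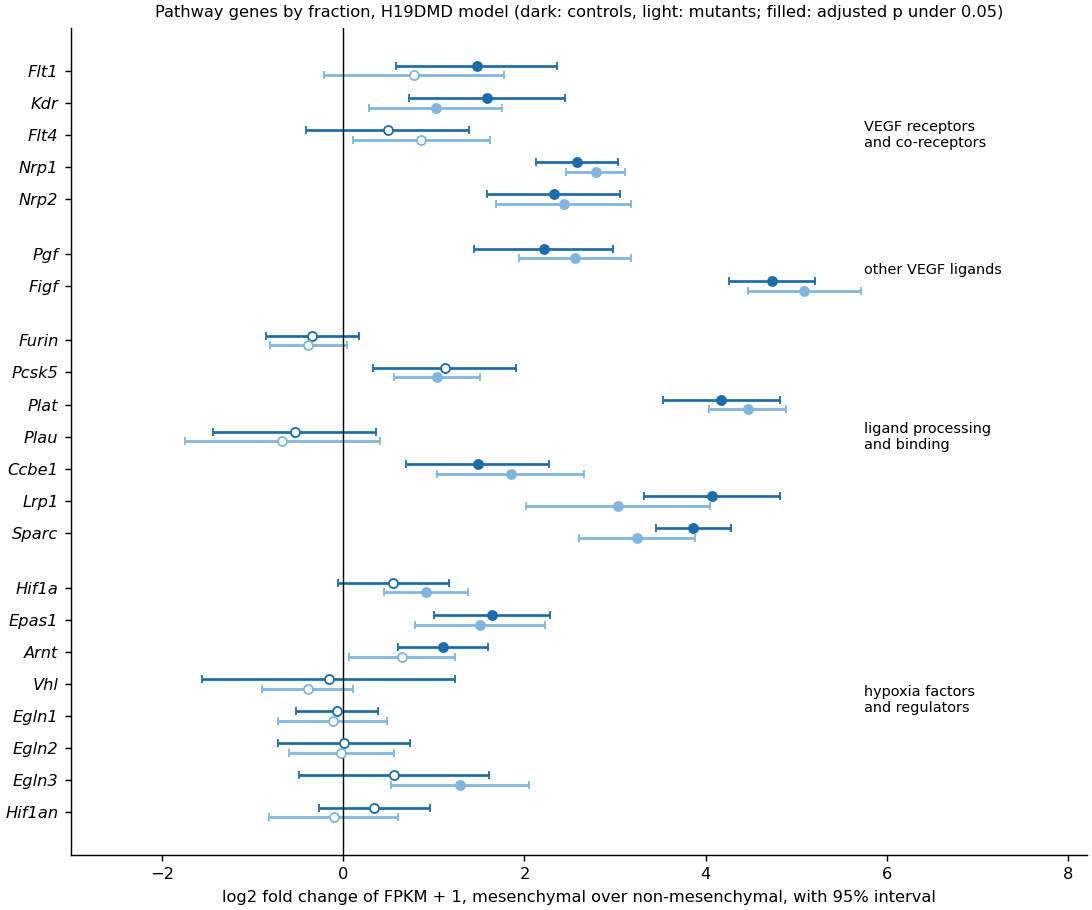
Log2 fold change of FPKM + 1 of mesenchymal over non-mesenchymal cells (horizontal axis) with 95% intervals for genes of 4 pathway lists, in H19DMD controls (dark) and mutants (light), with filled points where the adjusted p was under 0.05. Figf, Plat, Lrp1 and Sparc lie at 3.03 or more. The fifth list, of 17 signal relay genes, is not drawn, and it holds 2 genes lower in mesenchymal mutants, Nck2 and Grb2.

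The effect of the H19DMD deletion was examined within mesenchymal cells, where the series places Igf2 overexpression. No member passed: 0 of 9 at an adjusted p under 0.05, against 0.0694% of all genes, and 0 of 9 at an unadjusted p under 0.05, against 4.76%. Mutant and control libraries overlapped for all 9 members, while 5.39% of all genes had no overlap. Mean Pdgfra was 63.8 FPKM in the 4 mutants (SD 8.0) and 54.8 FPKM in the 3 controls (SD 10.6), and the log2 difference was 0.23 (95% interval -0.23 to 0.68, exact permutation p = 0.314). For Pdgfrb the difference was -0.08 (-0.61 to 0.46), for Vegfa -0.11 (-0.59 to 0.37) and for Vegfc 0.03 (-0.57 to 0.63). These 4 intervals leave out a doubling or a halving of FPKM + 1, which would be 1 or -1 on the log2 scale. Those of the PDGF ligands were wider: -1.80 to 1.01 for Pdgfa, -2.18 to 0.63 for Pdgfb, -1.51 to 0.62 for Pdgfc and -1.09 to 0.45 for Pdgfd. Vegfb was -0.43 (-1.24 to 0.39). Adjusted p-values ran from 0.927 to 0.993. Of the 9 differences 7 were negative, and the median over all genes was -0.066, with 42.7% of genes above 0.

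The mesenchymal mutant libraries differed among themselves in the PDGF ligands. Pdgfa spanned 8.24 to 48.1 FPKM in the 4 mesenchymal mutants and 21.2 to 28.2 in the 3 controls, and Pdgfc spanned 1.45 to 9.0 and 5.47 to 6.56. Mutant 1 was the highest and mutant 4 the lowest for Pdgfa, Pdgfb, Pdgfc and Pdgfd. Pdgfra did not follow this, with 55.5 FPKM in mutant 1 and 64.8 in mutant 4. Summed FPKM of 5 smooth muscle genes was 871, 387, 310 and 67.1 in mutants 1 to 4 and 919, 423 and 867 in the controls. The endothelial sum was 186, 155, 127 and 101 in mutants 1 to 4 and 108, 122 and 139 in the controls. Both sums had the same order as Pdgfa over the 4 mutants. Over the controls the smooth muscle sum had the order of Pdgfa. The endothelial sum did not, and was lowest in control 1, where Pdgfa was highest. The sum of 6 pericyte genes was 333, 281, 304 and 173 in mutants 1 to 4 and 197, 228 and 299 in the controls. That of 4 ductal genes was 31.9, 24.7, 24.8 and 11.1 in mutants and 74.8, 31.1 and 50.7 in controls. The pericyte and ductal sums both had the order of Pdgfc over the mutants, and neither had it over the controls. The part of these cells in the Pdgfa and Pdgfc levels was not tested.

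**Figure D4:**
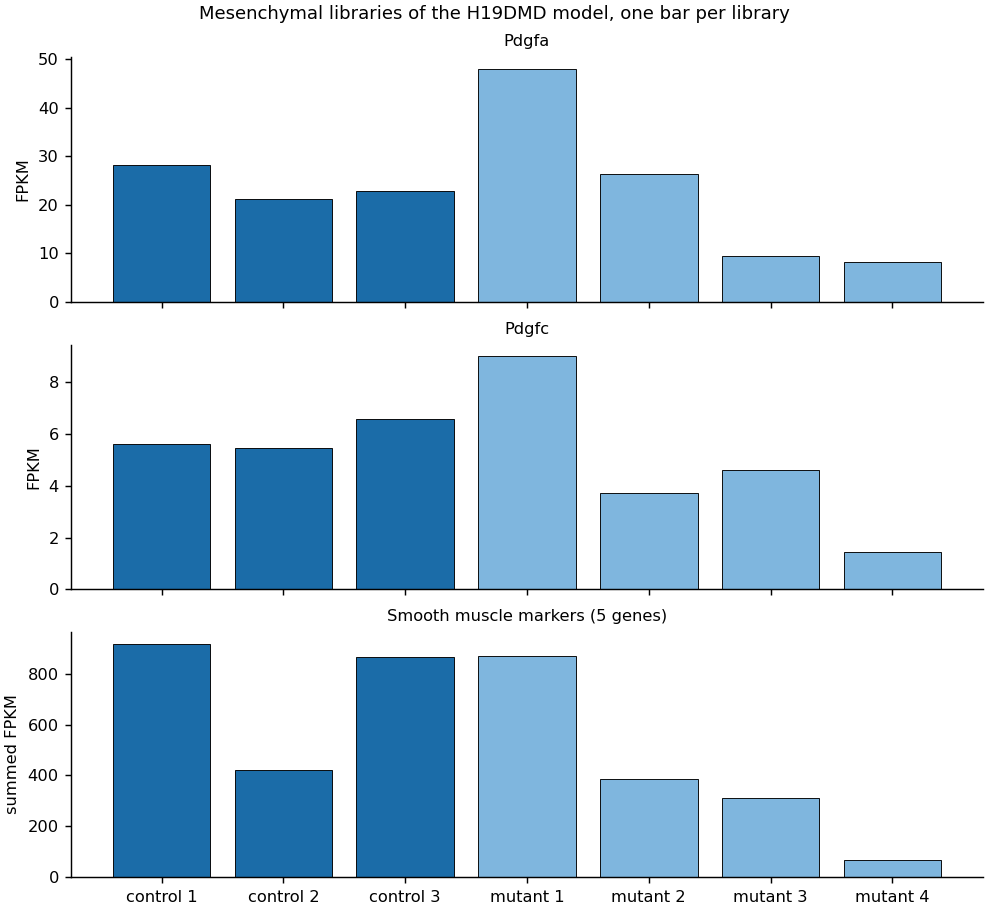
FPKM of Pdgfa and Pdgfc and the summed FPKM of 5 smooth muscle markers (vertical axes, linear, from 0) in each mesenchymal library of the H19DMD model, with controls dark and mutants light. Mutant 1 is the highest of the 4 mutants and mutant 4 the lowest in all 3 panels.

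In non-mesenchymal cells of the H19DMD model, 7 of the 9 members reached the mean of 1 FPKM required for testing, and Pdgfra and Pdgfrb did not. None of the 7 passed at an adjusted p under 0.05, against 0.0677% of all genes, and 0 passed at an unadjusted p under 0.05, against 5.35%. All overlapped between genotypes, while 5.68% of all genes did not. Mean Pdgfc was 22.9 FPKM in the 4 mutants (SD 7.3) and 14.3 FPKM in the 3 controls (SD 3.7), and the log2 difference was 0.61 (95% interval -0.14 to 1.35, limma adjusted p = 0.894, exact permutation p = 0.143). Of its 4 mutant libraries 3 lay above all controls, and mutant 1 did not. Summed FPKM of 5 erythroid genes was 152, 703, 1100 and 1700 in mutants 1 to 4 and 123, 433 and 130 in the controls, the order of Pdgfc over the mutants. The sum of 4 leukocyte genes had the same order, at 178, 219, 282 and 377 against 137, 303 and 210 in controls. That of 5 endocrine genes had the reverse order over the mutants, 19400, 14300, 12100 and 10100 against 18700, 28400 and 26000 in controls. Over the controls the erythroid, leukocyte and endocrine sums all had the order of Pdgfc. Most of the leukocyte sum was Lyz2, at 121 to 278 FPKM in mutants and 89.5 to 219 in controls. Ptprc of the leukocyte list went the other way, with a mean of 11.5 FPKM in mutants and 21.6 in controls. The part of these cells in the Pdgfc values was not tested. Mean Pdgfd was 13.4 FPKM (SD 2.0) and 9.82 FPKM (SD 2.8), a difference of 0.44 (-0.10 to 0.98, adjusted p = 0.894, exact permutation p = 0.0857). Vegfa differed by 0.13, Pdgfa by 0.06, Pdgfb by 0.38, Vegfb by 0.46 and Vegfc by 0.20. The receptors, not in the fit, had exact permutation p = 0.257 (Pdgfra) and 0.343 (Pdgfrb). All 7 differences were above 0, as were those of 56.1% of all genes, whose median was 0.0542.

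In non-mesenchymal cells of the Igf2 model, 8 of the 9 members were tested and Pdgfrb was too low. None of the 8 passed at an adjusted p under 0.05, against 0.0631% of all genes, and 0 passed at an unadjusted p under 0.05, against 5.28%. All overlapped between genotypes, while 6.02% of all genes did not. Pdgfa was 31.2, 20.8 and 28.4 FPKM in mutants and 40.1, 46.1, 27.5 and 45.3 in controls. Only control 3 lay within the mutant range. The log2 difference was -0.55 (95% interval -1.11 to 0.02, unadjusted p = 0.0568, limma adjusted p = 0.919, exact permutation p = 0.114). Summed FPKM of 5 acinar genes was 79400 to 91500 in these mutants and 27200 to 39100 in the controls, and that of 4 ductal genes was 717 to 856 and 891 to 1190. Neither sum overlapped between the groups. Most of the ductal sum was Spp1, at 590 to 703 FPKM in mutants and 719 to 1020 in controls, while Krt19, Sox9 and Cftr overlapped. The part of these cells in the Pdgfa values was not tested. Vegfa was 163, 113 and 146 FPKM in mutants and 155, 151, 108 and 144 in controls. Its groups covered nearly the same range, with a difference of 0.01 (-0.46 to 0.47). Pdgfc was 26.9, 12.1 and 20.9 FPKM in mutants and 18.9, 32.8, 24.4 and 24.8 in controls. Its groups overlapped, with a difference of -0.37.

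Pdgfb in this model was 2.43, 1.16 and 8.56 FPKM in mutants and 2.21, 4.17, 6.5 and 5.27 in controls. Mutant 3 was the highest and mutant 2 the lowest of the 7 libraries, and the difference was -0.35. The platelet marker sum was also highest in mutant 3, at 324 FPKM, and the endothelial sum was 260 there and 15.1 to 257 in the other 6 libraries. Most of the platelet sum was Pf4, at up to 316 FPKM in mutants, where Itga2b reached 6.38. The leukocyte sum was highest in mutant 3 too, at 633 FPKM. The platelet and endothelial sums were lowest in control 1, at 42.5 and 15.1 FPKM. In mutant 2, lowest for Pdgfb, they were 70.9 and 50.2. The part of these cells in the Pdgfb level was not tested. Pdgfd averaged 10.2 FPKM in mutants and 11.7 in controls, Vegfb 9.81 and 9.22, and Vegfc 0.940 and 1.57. Their groups overlapped, with differences of -0.19, 0.09 and -0.39. Pdgfra averaged 1.06 and 1.38 FPKM, a difference of -0.24, and Pdgfrb 0.980 and 0.804 FPKM (exact permutation p = 0.543).

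**Figure D5:**
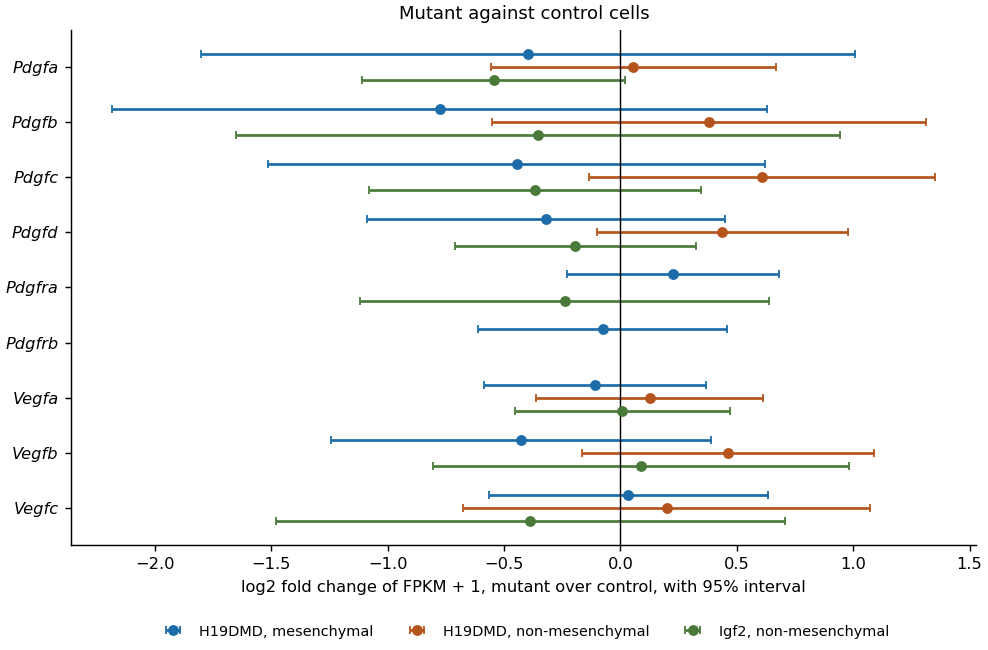
Log2 difference of FPKM + 1 of mutant over control cells (horizontal axis) for each gene with 95% intervals, in H19DMD mesenchymal, H19DMD non-mesenchymal and Igf2 non-mesenchymal cells, with no point where a gene was too low to test. Every interval includes 0, and those of Pdgfa and Pdgfb in mesenchymal cells, -1.80 to 1.01 and -2.18 to 0.63, are among the widest.

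A fraction-by-genotype interaction asked if the effect of the H19DMD deletion depended on the fraction. None of the 9 members passed at an adjusted p under 0.05, against 0.0117% of all genes, and 0 passed at an unadjusted p under 0.05, against 6.35%. Pdgfc had a difference of effects of -1.05 ± 0.57 (SE, limma adjusted p = 0.843) and Pdgfd of -0.76 ± 0.38 (adjusted p = 0.812). Their wider fraction gap in mutants thus did not hold up against the spread. The difference was largest for Pdgfb, at -1.16 ± 0.70 (adjusted p = 0.857), and was -0.89 ± 0.45 for Vegfb (adjusted p = 0.812). Pdgfa, Pdgfra, Pdgfrb, Vegfa and Vegfc had -0.45 to -0.16, with adjusted p from 0.903 to 0.964. All 9 interaction terms were negative, as were those of most genes: 41.1% of all genes were above 0 and the median was -0.114, which median-ratio scaling of the libraries moved to -0.0048. In the genotype comparisons and the interaction, no gene of the 5 pathway lists passed at an adjusted p under 0.05, and 1 gene, the adaptor Gab1 in non-mesenchymal cells of the H19DMD model, had an unadjusted limma p under 0.05 (0.0391), with overlapping groups (exact permutation p = 0.0857). Of the same lists, mesenchymal groups did not overlap for the adaptor Nck2, at 4.40 FPKM in mutants and 7.54 in controls. Nor did they for Figf (43.5 to 62.2 and 36.4 to 40.7) and Adamts3 (0.985 to 1.52 and 1.55 to 1.63). Exact permutation p was 0.0286, 0.0857 and 0.0571, and limma adjusted p 0.927, 0.927 and 0.948. Non-mesenchymal H19DMD groups did not overlap for the adaptor Crk, at 26.8 in mutants and 21.9 in controls, and Arnt (22.8 to 32.5 and 19.3 to 21.4). Exact permutation p was 0.0286 and 0.0857, and limma adjusted p 0.894 for each. Of all genes, 5.39% did not overlap in mesenchymal and 5.68% in non-mesenchymal cells.

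For each member, the 3 protein-coding genes most alike over the 14 H19DMD libraries were found by Pearson's r of log2(FPKM + 1) among 9022 genes averaging 5 FPKM or more. The points are libraries of both fractions and of unlike depth, so r mostly describes the fraction pattern. Pdgfra was closest to Epha4, Postn and Tgfbr3 (r = 0.997 each), and Pdgfrb to Svep1, Thbs2 and Tgfb1i1 (0.996, 0.996 and 0.995). Vegfc was closest to Plod2, Timp2 and Nr2f2 (0.984, 0.98 and 0.978). Vegfa was closest to Csf1r, St14 and Cgn (0.976, 0.972 and 0.971), Pdgfc to Ptprk, Ubxn2a and Cisd1 (0.967, 0.953 and 0.95), and Pdgfd to Id2, Sdc4 and Fam103a1 (0.984, 0.981 and 0.975). The members with no call between fractions had less close neighbours: Cope for Pdgfa (0.92), Hs3st1 for Vegfb (0.895) and Ldhb for Pdgfb (0.877).

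All 9 genes are annotated as protein-coding in GRCm38. Pdgfra is at chr5:75152292-75198215 on the plus strand, Pdgfrb at chr18:61045150-61085061 (plus), Pdgfa at chr5:138976014-138997370 (minus), Pdgfb at chr15:79995874-80014977 (minus), Pdgfc at chr3:81036416-81214040 (plus) and Pdgfd at chr9:6168584-6378850 (plus). Vegfa is at chr17:46016993-46032369 (minus), Vegfb at chr19:6982473-6987651 (minus) and Vegfc at chr8:54077606-54187096 (plus). The exons of Pdgfa share 813 nt with the antisense gene 6330403L08Rik, those of Pdgfra 456 nt with antisense features and those of Pdgfc 147 nt with Gm16000. Whether the counting used strand is not given in the sources used here, so reads in these stretches cannot be told apart and the values of Pdgfa, Pdgfra and Pdgfc are uncertain by that much.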

How the data were processed

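RNA from YFP-sorted cells of the P2 pancreas was amplified and sequenced as single reads, per the labels' protocols. The authors deposited FPKM values in one table for each model, with the FPKM unit given per the file headers. TopHat2 2.0.8, Cufflinks 2.2.1 and GRCm38 are named per the submitters' processing notes, without their roles. Strand use and any scaling between libraries are not given in the sources used here. Of 31 samples, 21 had values, and the other 10 were not analysed here. Library names in the labels tied each column to its sample.

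The deposited FPKM were used as log2(FPKM + 1). Genes averaging 1 FPKM or more in a comparison were tested with limma 3.58.1 in R 4.3.3 (lmFit, eBayes with a variance trend, two-sided), with only the groups compared in the fit and Benjamini-Hochberg adjustment over all genes at a threshold of 0.05. Two-sided exact permutation tests over libraries are given beside it for single genes. The 2 tables were normalised separately, so no test crosses them. All 9 members were named in every comparison, and of the 5 pathway lists of 40 genes those past the threshold or central to a list. The members, lists and tests were chosen with earlier results of these data known. Of the 38283 identifiers, 36425 are in GENCODE M21, used for coordinates, and upstream sequences came from RefSeq (GRCm38.p6). FPKM give no read counts, so no counting interval is given, and an exact 0 is given as listed at 0. Equal replicate numbers were not treated as pairs, because no same-number correlation was over 0.1. Alternatives were the pseudocount, the filter, the scaling, protein-coding genes alone, all groups in one fit, a replicate block and each library left out.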

Additional observations from a re-analysis of the deposited data

How the results depend on the processing

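Between fractions, all 116 values of the members in alternative fits of controls and all 134 in mutants kept their sign. Pdgfra, Pdgfrb and Vegfc passed in 13 of 13 alternatives in controls, and in mutants the 6 members passed in 15 of 15. The number of members past the threshold in controls, 6, was 3 with a replicate block and 3 to 6 when a library was left out. The 3 lowest came without mesenchymal control 2. With the block, Pdgfc, Pdgfd and Vegfa had adjusted p = 0.0561, 0.0599 and 0.0952, and in mutants the block left 6 members past the threshold. Replicate numbers correlated at -0.0506 to 0.0679 and are only shared numbers, and not every library correlated best with its own number. In mutants the leave-one-out counts were 6 to 7, the additional call being Pdgfa.

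In the genotype comparisons 0 of 325 alternative values of the members passed, 306 kept their sign and 19 reversed, and in the interaction 0 of 180 passed. Leaving out 1 library at a time gave H19DMD mesenchymal ranges of -0.19 to 0.084 for Pdgfrb, -0.191 to 0.056 for Vegfa and -0.107 to 0.206 for Vegfc. In H19DMD non-mesenchymal cells the ranges were -0.084 to 0.329 for Pdgfa and -0.037 to 0.259 for Vegfa. In the Igf2 model they were -0.958 to 0.116 for Pdgfb, -0.456 to 0.002 for Pdgfra, -0.108 to 0.157 for Vegfa and -0.216 to 0.266 for Vegfb, and for the Vegfc interaction -0.413 to 0.009. Pdgfa in H19DMD non-mesenchymal cells was -0.007 with median-ratio scaling, Vegfb in the Igf2 model -0.167 with the replicate block, and the Pdgfra interaction 0.079 with a pseudocount of 5 FPKM. The cause of these changes was not tested.

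Over all genes, calls between fractions were 2660 to 4448 in controls (3785 as reported, from 2067 higher and 1718 lower) and 3892 to 5418 in mutants. Genotype calls, 11 in each comparison, were 1 to 27 (H19DMD mesenchymal), 1 to 34 (H19DMD non-mesenchymal) and 3 to 37 (Igf2), and interaction calls, 2, were 0 to 9. Scaling factors were 0.858 to 1.08, and scaling moved the median of all genes between fractions in controls from 0.0796 to -0.0312. Depth is unknown, so values under about 1 FPKM, such as both receptors in non-mesenchymal cells, have no counting error here.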

Other observations

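Of the 17 genes that relay signals next to these receptors, 2 were higher in mesenchymal cells and 0 lower in H19DMD controls, beside 12.4% and 10.3% of all genes. In mutants 4 were higher and 2 lower, beside 13.5% and 15.1% of all genes. Fyn, a Src family kinase, averaged 49.0 FPKM in mesenchymal and 15.1 in non-mesenchymal controls (log2 fold change 1.64 ± 0.27 SE, limma adjusted p = 0.00807), and 54.0 and 9.85 in mutants (adjusted p = 0.00359). Gab1, a docking protein, averaged 35.4 and 18.0 FPKM in controls (adjusted p = 0.0117) and 38.5 and 26.3 in mutants (adjusted p = 0.0495). Pik3r1, a regulatory subunit of PI3-kinase, and the adaptor Shc1 passed in mutants (log2 fold change 1.14 and 0.67, adjusted p = 0.000578 and 0.0359). In controls both differed in the same direction without passing (0.70 and 0.80, adjusted p = 0.0735 and 0.0795).

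Nck2, an adaptor, was lower in mesenchymal mutants, at a mean of 4.40 against 15.9 FPKM (log2 fold change -1.62 ± 0.25 SE, limma adjusted p = 0.0017), and averaged 7.54 against 14.1 in controls (adjusted p = 0.107). Grb2, also an adaptor, averaged 4.81 against 11.8 FPKM in mutants (adjusted p = 0.0462), with overlapping libraries. Nck1, the close relative of Nck2, had means of 14.2 and 14.8 FPKM in mutants and did not pass (adjusted p = 0.904).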
